A study of Arapaima gigas with 24 samples.

Results

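The 200 gene models described here were higher in male than in female Arapaima gigas (pirarucu, a large air-breathing fish of South American fresh waters) in both tissues sampled, gonad and brain. They were chosen by those measured sex differences from a table of 22016 gene models. After the 220 gene models of highest mean level in CPM (read counts scaled to the total of the sample) were set aside, 21796 were eligible. A gene model met the rule when, in gonad and again in brain, all 3 males lay above all 3 females and the mean male minus female difference was above 0.2 on the scale L, which is log2(CPM + 0.5) minus the median of the sample over all gene models. The rule was met by 278 gene models, and the 200 with the largest value of the smaller of their 2 tissue differences are the members. Their sex differences are therefore a description of the choice. Tests of these contrasts over the whole table are given below, and nothing is read from them for the members.

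The groups were testis (male gonad), ovary (female gonad), male brain and female brain, with 3 fish in each. Both tissues came from the same 6 farmed fish, aged 4 years or more and measuring 100 to 120 cm, caught in the breeding season and sexed by spermatozoa in the testis or primary oocytes in the ovary. The fish had received no treatment that the labels name. Poly(A) RNA with an integrity number of 8 to 8.5 was sequenced in 50 nt reads on a SOLiD instrument, as 2 libraries per tissue and fish, which were added. Their titles give the same fish and tissue and differ in a prefix with no stated meaning, so taking them as repeats of 1 sample, called run 1 and run 2 here, is an assumption.

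In bony fish the testis holds germ cells from spermatogonia to sperm together with Sertoli and Leydig cells, and the ovary holds oocytes surrounded by follicle cells. The brain steers both through gonadotropin-releasing hormone neurons and the pituitary, and steroids from the gonad act back on the brain. In whole tissue a larger number of cells of a type and more RNA per cell cannot be told apart.

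Whole-number read counts per gene model were deposited. The gene model identifiers are not paired with gene names in the table, and reads had been placed on the genome of a related fish, Scleropages formosus (Asian arowana). No symbol, function, sequence or position is therefore given, members are called by their rank in the list, and the labelled tissues could not be checked against marker genes. Of the 22016 gene models, 22006 had counts in every library. Gonad minus brain L, averaged over all fish with testes and ovaries together, had quartiles of -0.08 and 0.08 over all gene models and ran from -1.48 to 1.51. On this average most gene models differed little between the tissues, and why was not tested. Opposite differences in testis and ovary cancel in it. Summed totals ran from 5689872 to 13142667 counts per sample. The 220 gene models of highest level held 13.2% to 21.0% of counts in testes and 21.5% to 26.4% in ovaries. In brain they held 11.4% to 14.7% in males and 17.4% to 26.5% in females.

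Among the eligible gene models, 1159 (5.32%) met the gonad condition of the rule and 1974 (9.06%) the brain condition. Both conditions were met by the 278, which is 1.28%. A further 199 eligible gene models had males above females without overlap in both tissues but a smaller difference at or under 0.2. Just inside the list of 200 the smaller difference was 0.2395 and just outside it 0.2387, while at the 0.2 limit the nearest values were 0.2006 and 0.1998. None of the 220 gene models of highest level separated the sexes with males higher in both tissues. The same rule turned round, with females higher, was met by 93 gene models.

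Member differences were small. Their median male minus female L was 0.35 in gonad (range 0.24 to 1.68) and 0.34 in brain (range 0.24 to 0.81), against 0.01 in gonad and 0.02 in brain over all gene models. The difference was larger in gonad for 114 members and larger in brain for 86. It was at least 0.5 in both tissues for 10 members, at least 1 in gonad for 2 and at least 1 in brain for 0. The values are on the log2(CPM + 0.5) scale, which understates the differences of gene models with low counts.

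**Figure D1:**
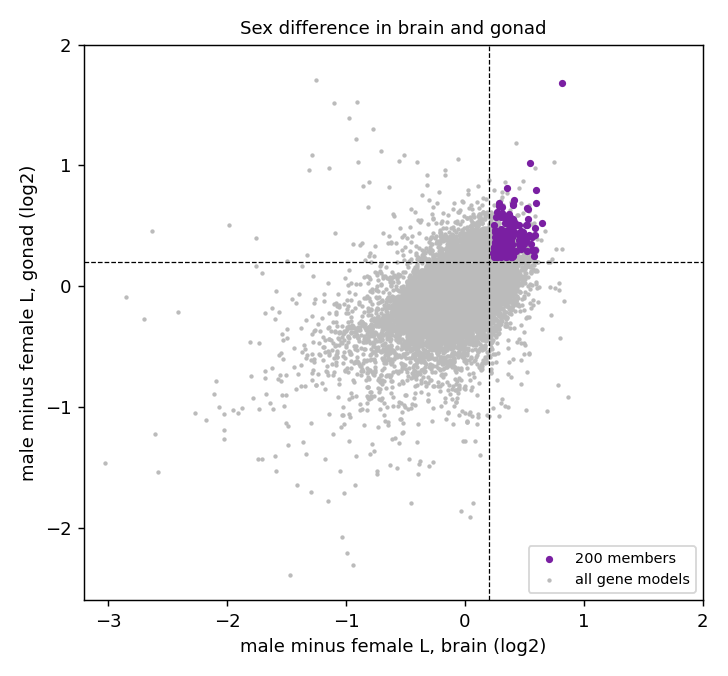
Mean male minus female L in brain (x axis, log2 units) and in gonad (y axis, log2 units), 1 point per gene model, with the 200 members coloured and dashed lines at the 0.2 limit of the rule. The members lie up and right of both lines, with a single member far above the others in gonad at 1.68.

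The member of rank 1 had the largest difference in both tissues. It had 11.3, 14.9 and 7.08 CPM in the testes of males 1, 2 and 3, against 4.24, 1.99 and 1.89 CPM in the ovaries of females 1, 2 and 3. Every testis lay above every ovary, as the rule asks on the L scale. The means were 11.1 ± 3.93 CPM in testis and 2.71 ± 1.33 CPM in ovary (SD, n = 3 each), a ratio of 4.10. In brain it had 15.9, 15.9 and 13.1 CPM in males and 9.28, 5.23 and 6.15 CPM in females. The brain means were 15.0 ± 1.59 CPM in males and 6.89 ± 2.13 CPM in females (SD, n = 3 each), a ratio of 2.17. Female 1 was the female nearest to the males in both tissues, and male 3 the male nearest to the females.

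Read counts of this member were moderate. The testes held 96, 176 and 63 counts and the ovaries 28, 19 and 22, and the male brains held 168, 163 and 137 counts and the female brains 122, 56 and 35. The ratio of male to female counts per total was 4.63 in gonad (95% exact interval from counting error alone 3.56 to 6.08) and 2.08 in brain (1.76 to 2.45). Such intervals leave out the spread between fish, and reads without molecular identifiers are not independent molecules. The member was also chosen by the difference in these same counts, so the stated 95% does not hold for it. Nothing is read from where the intervals lie. On the L scale, which removes the shift of all gene models, the differences were 1.68 in gonad and 0.81 in brain.

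The member of rank 2 had the lowest mean level of the 200, 1.16 CPM. Testes held 15, 18 and 12 counts (1.77, 1.53 and 1.35 CPM), against 2, 8 and 9 counts (0.303, 0.839 and 0.773 CPM) in ovaries. Male brains held 20, 16 and 18 counts (1.89, 1.56 and 1.73 CPM), and female brains 9, 10 and 3 (0.685, 0.933 and 0.527 CPM). The sexes did not overlap, and the means were 1.55 ± 0.210 CPM in testis against 0.638 ± 0.292 in ovary, and 1.73 ± 0.164 CPM in male brain against 0.715 ± 0.205 in female brain (SD, n = 3 each). With so few reads the counting interval of the male to female ratio was wide, 1.29 to 4.09 around 2.26 in gonad and 1.39 to 4.00 around 2.32 in brain. These intervals have the same limits as those of rank 1, the choice by these same counts among them. Its difference in L moved with the run and the pseudocount: in brain it was 1.06 in run 1 and 0.13 in run 2, and with a pseudocount of 2 it was 0.26 in gonad and 0.19 in brain.

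**Figure D2:**
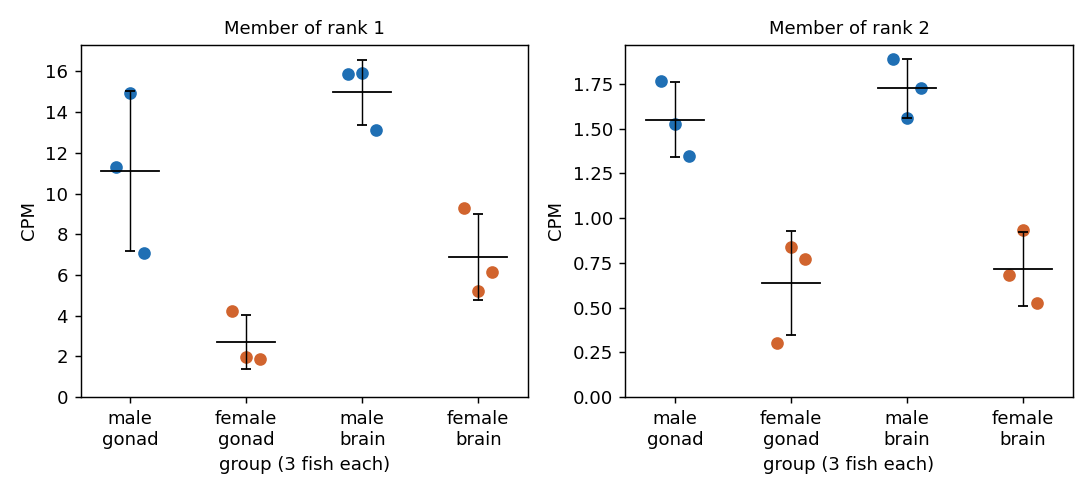
CPM (y axis) of the members of rank 1 (left) and rank 2 (right) in the 4 groups of 3 fish (x axis); points are fish, and the line and bars are the mean and SD. In both gene models all males lie above all females within a tissue, a separation that the choice of members fixes. For rank 1 the testes lie at 7.08 to 14.9 CPM and the ovaries at 1.89 to 4.24 CPM.

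Other leading members were also low in count. The member of rank 4, the only other member with a gonad difference of at least 1, had 17, 21 and 12 counts in testes against 3, 3 and 7 in ovaries, and 17, 23 and 17 in male brains against 16, 6 and 4 in female brains. For the member of rank 3 the counts were 24, 48 and 20 in testes against 10, 17 and 8 in ovaries, and 39, 43 and 37 in male brains against 29, 17 and 10 in female brains. Better covered was rank 6, with 110, 142 and 89 counts in testes, 46, 59 and 68 in ovaries, 127, 130 and 131 in male brains and 120, 45 and 47 in female brains. In all 3 of these members female brain 1 carried the most counts among female brains, and it was also the deepest of the 12 samples. Scaled to the total, female brain 1 was still the highest of the female brains in all 3. It had 2.21 CPM for rank 3, 1.22 CPM for rank 4 and 9.13 CPM for rank 6. The next highest was female brain 3 each time, at 1.76, 0.703 and 8.26 CPM. Not all leading members had this order. For rank 5 the highest was female brain 3, at 3.34 CPM against 2.89 CPM in female brain 1, and for rank 2 it was female brain 2. Why female brain 1 was highest in ranks 3, 4 and 6 was not tested.

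At the other end of the range of levels stood the member of rank 170, the highest of the 200 at 78.5 CPM. Its means were 86.9 ± 16.4 CPM in testis against 63.3 ± 4.82 CPM in ovary, and 97.3 ± 2.33 CPM in male brain against 66.6 ± 11.5 CPM in female brain (SD, n = 3 each). Every male lay above every female in each tissue, as the rule asks on the L scale. Its differences in L were 0.25 in gonad and 0.27 in brain, with 409 to 1244 counts per sample.

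The median L over the 200 was -0.89, -0.75 and -0.90 in testes 1, 2 and 3, against -1.21, -1.24 and -1.33 in ovaries 1, 2 and 3. In brain it was -0.88, -0.77 and -0.74 in males 1, 2 and 3 and -1.10, -1.28 and -1.16 in females 1, 2 and 3. The sample nearest to the other sex was not spread evenly over fish. Among ovaries, female 1 was the highest in 108 of the 200 members, female 2 in 59 and female 3 in 33, and among female brains female 1 was the highest in 112, female 3 in 66 and female 2 in 22. Among testes, male 3 was the lowest in 113 members, male 1 in 64 and male 2 in 23, while among male brains male 1 was the lowest in 104, male 3 in 53 and male 2 in 43. Male 2 was thus the least often at the female edge in both tissues, and female 1 the most often at the male edge in both. The same counts were not taken over all gene models, so this order is not read as particular to the members.

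**Figure D3:**
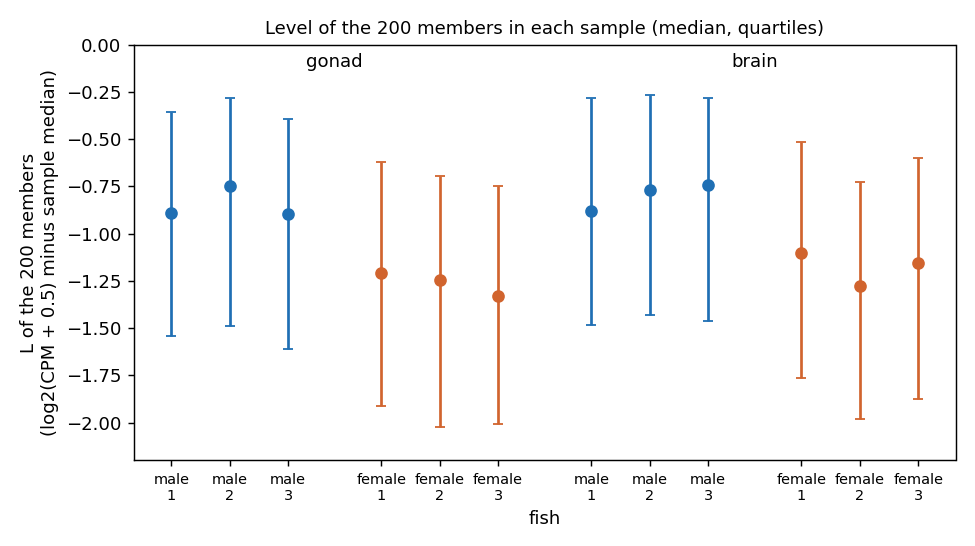
Level of the 200 members in each of the 12 samples as L (y axis, log2(CPM + 0.5) minus the median of the sample), with the median as a point and the quartiles as bars. The medians lie from -0.90 to -0.74 in the 6 male samples and from -1.33 to -1.10 in the 6 female samples, a separation that the choice of members fixes.

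The members took 0.310%, 0.391% and 0.283% of all counts in testes 1, 2 and 3, against 0.238%, 0.209% and 0.216% in ovaries 1, 2 and 3. In brain the shares were 0.376%, 0.396% and 0.367% in males and 0.286%, 0.1997% and 0.253% in females. The share of the 220 gene models of highest level, given above, was lower in every male than in every female sample of a tissue. Testis 2 had the highest member share and the lowest top-220 share of the gonads (13.2%), male brain 2 had the highest member share and the lowest top-220 share of all brains (11.4%), and female brain 1 had the highest member share and the lowest top-220 share of the female brains (17.4%). The opposite order did not hold throughout: testis 1 was above testis 3 in both shares (top-220 share 21.0% and 20.5%), and ovary 1 was above ovary 3 in both (22.2% and 21.5%). The part of this shift in the members' differences was not tested beyond the scalings and the level correction given here.

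Members were gene models of low level. Their mean CPM had a median of 12.4 (range 1.16 to 78.5), against 25.1 over all gene models, and their mean count per sample a median of 124. Only 2 members averaged under 20 counts per sample, 118 averaged at least 100, and 4 had fewer than 10 counts in at least 1 sample. The eligible gene models were cut into 5 level classes of equal size by mean CPM. Class 1, the lowest, held 93 members (46.5%), and classes 2 to 5 held 66, 28, 11 and 2. The rule was met by 2.43% of class 1 and by 2.11%, 1.12%, 0.619% and 0.0918% of classes 2 to 5. Gene models meeting the rule turned round, with females higher, lay the other way, at 8, 8, 12, 19 and 46 in the same order. CPM is not corrected for gene length here, so these classes also sort gene models by length and by how well reads were placed on the arowana genome.

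Level and sex difference moved together in the whole table. In level class 1 the median male minus female L of all eligible gene models was 0.09 in gonad and 0.11 in brain, and in class 5 it was -0.09 in gonad and -0.11 in brain. Members had to lie above these medians in each class, since the choice left none with a smaller difference under 0.2395. Their medians were 0.40 in gonad and 0.36 in brain in class 1. For the 2 members of class 5 they were 0.25 in gonad and 0.26 in brain. When the trend of L with level was removed from each sample, the members' median difference was 0.29 in gonad and 0.27 in brain. After that correction 100 of the 200 had males above females without overlap in both tissues, against 370 (1.7%) of the 21796 eligible gene models, and 91 met the whole rule, against 160 (0.734%). The members were chosen on the uncorrected values of the same samples, so nothing is read from these medians and counts.

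**Figure D4:**
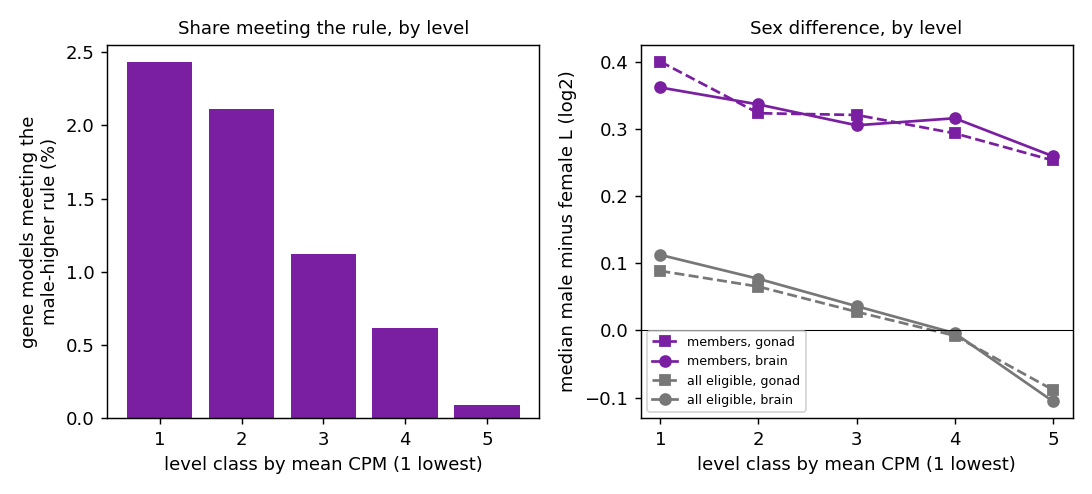
Left, share of eligible gene models meeting the male-higher rule (y axis, %) in 5 level classes by mean CPM (x axis, 1 lowest). Right, median male minus female L (y axis, log2) in the same classes for the members and for all eligible gene models, in gonad and brain; the share is 2.43% in class 1 and 0.0918% in class 5, and the median of all eligible gene models crosses 0 between classes 3 and 4.

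Scaling moved the size of the differences and the number of gene models meeting the rule. With total counts alone, the median of all gene models shifted to 0.20 in gonad and 0.31 in brain, the members' medians were 0.54 and 0.63, and 2538 gene models met the rule. Relative to all gene models the members stood 0.34 higher in gonad and 0.32 higher in brain, values that are the same with centring on the sample median by construction, since these scalings differ by 1 constant per sample. All 200 members met the rule with total counts, 193 with upper-quartile scaling, 192 with trimmed-mean (TMM) scaling and 186 with RLE scaling. With a pseudocount of 2 in place of 0.5, 158 members and 194 gene models met it. With a pseudocount of 0.1, 200 members and 299 gene models did.

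The 2 runs of a sample share their fish and both went into the choice of members, so the values of a single run describe that choice. Run 1 alone gave testes above ovaries without overlap in 108 members, against 6.42% of eligible gene models, and run 2 in 90, against 6.12%. Male brains lay above female brains in 117 members in run 1, against 11.7% of eligible gene models, and in 124 in run 2, against 11%. The whole rule was met by 62 members in run 1, where 258 gene models (1.18%) met it, and by 55 in run 2, where 185 (0.849%) did. Runs of a sample differed by a mean of 0.22 in L at the median member, against 0.17 over all gene models, and by 0.30 for members in level class 1, where all gene models differed by 0.28.

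Spread between fish of a group was close to what counting gives. The SD of L between fish of a group had a median of 0.15 over the members, against 0.17 over all gene models, and the SD that counting error alone predicts had a median of 0.13 in members and 0.09 over all. Per gene model, the predicted SD was a median of 0.90 of the observed one in members and 0.60 over all. Low spread is favoured by a rule that asks for no overlap, so these values describe the choice.

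Leaving out 1 fish changed the number of gene models meeting the rule. Fewer fish can only ease the condition of no overlap, while the mean difference can move either way. The part of each was not tested. The number was 471 without male 1, 280 without male 2, 854 without male 3, 918 without female 1, 338 without female 2 and 458 without female 3. Over the same refits the members' median difference was between 0.30 and 0.39 in gonad and in brain, lowest without male 2 in gonad and without female 2 in brain. All fish went into the choice of members, and the rule keeps each member's difference above 0 without any 1 fish. These medians therefore describe the choice.

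Fitted over the whole table, the quasi-likelihood test of edgeR found 0 called gene models of 22001 (0%) for testis against ovary and 0 of 22015 (0%) for male against female brain at a Benjamini-Hochberg adjusted p under 0.05, and so 0 members. At an unadjusted p under 0.05, 2.33% of all gene models were higher in males in gonad and 7.14% in brain, and 105 members were so in gonad and 162 in brain. The rule used these contrasts, so nothing is read from the members' counts. DESeq2 gave an adjusted p to only 23 of the 200 members in gonad, of which it called 0, against 0% of all gene models called higher in males. In brain it gave one to 93 members and called 12, all higher in males, against 0.432% of all gene models. That share is over all 22015 gene models tested, with or without an adjusted p, so it is not like 12 of 93. By limma-voom 0 members were called in either tissue, against 0% of all gene models called higher in males, and edgeR without female 1 called 5 members higher in male brain, against 0.0908%.

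A comparison that the rule did not use is gonad against brain. Over the 6 fish, with each fish as a block, edgeR called 0 of 22014 gene models (0%) and 0 of 200 members at an adjusted p under 0.05. At an unadjusted p under 0.05, 17 members (8.5%) were lower in gonad, against 2.78% of all gene models, and 0 were higher in gonad, against 2.96%. By level class the 17 were 6 of 93, 5 of 66, 5 of 28, 1 of 11 and 0 of 2 members, against 4.47%, 3.37%, 3.37%, 2.13% and 0.665% of the eligible gene models of each class. The rule favours low spread between fish of a group (median SD of L 0.15 in members, 0.17 over all gene models), and low spread lowers p. Shares of members and of all gene models, here and below, are therefore not a like comparison. The adjusted p of the member with the smallest p was 0.783 in edgeR, at a log2 fold change of -0.29, so no member passed the test.

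The gonad minus brain difference of the members was small and uneven over fish. It had a median of -0.07 over the 200 (range -0.74 to 0.26), against -0.005 over all gene models, and was below 0 in 149 members (74.5%), against 51.8% of all gene models. By fish the median over members was -0.05, -0.01 and -0.15 in males 1, 2 and 3 and -0.10, 0.04 and -0.13 in females 1, 2 and 3. Female 2 had most members higher in gonad, 117 of 200, and male 3 and female 3 the fewest, 50 each. Lower in gonad were 75% of members in male 3 and 75% in female 3, against 56.6% and 48.5% of all gene models in these fish, and 41.5% of members in female 2, against 50.1%. Gonad lay below brain in all 6 fish for 12 members (6%), against 2.54% of all gene models, and above brain in all 6 fish for 0 members, against 1.52%. In level class 1 the median was -0.07 in members and -0.04 in all eligible gene models, and in class 4 it was -0.07 in members and 0.01 in all eligible ones.

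**Figure D5:**
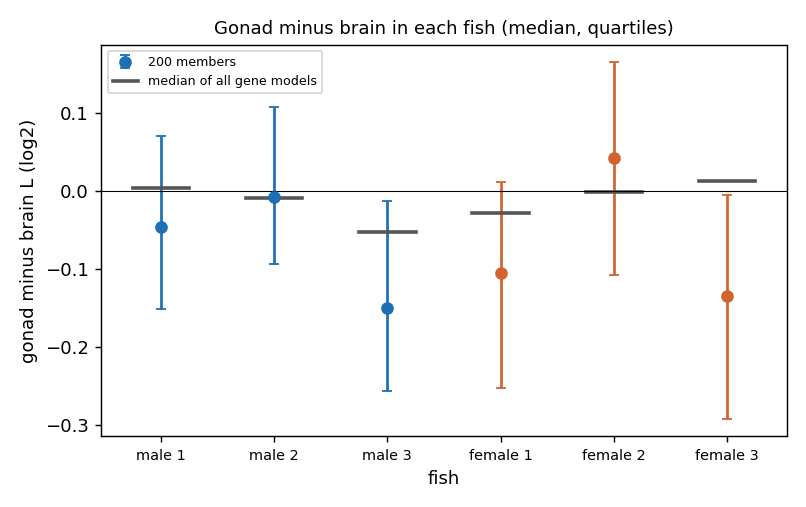
Gonad minus brain L (y axis, log2) in each of the 6 fish (x axis), with the median of the 200 members as points, their quartiles as bars and the median of all gene models as grey lines. The members' median is below 0 in 5 fish, from -0.15 in male 3 to -0.01 in male 2, and is 0.04 in female 2.

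The count of 17 moved with the fit and with single fish. Members lower in gonad at an unadjusted p under 0.05 numbered 1 without the fish as a block, against 2.63% of all gene models, 6 in DESeq2, against 1.42%, 9 in run 1 alone, against 2.48%, and 18 in run 2 alone, against 2.74%. The fit without the block holds no term for sex. The sex difference that chose the members counts as spread there, so its count is not like the others. They numbered 7 without male 1 (1.89% of all gene models), 18 without male 2 (2.66%), 7 without male 3 (2.01%), 5 without female 1 (2.92%), 13 without female 2 (2.36%) and 10 without female 3 (2.35%). With upper-quartile scaling there were 27, against 5.09%, and with total counts 52, against 12.8%, where the median of all gene models shifted by -0.12. Members higher in gonad numbered 2 in run 1 alone and 1 without female 3, and 0 in the other fits named above. The fits within a sex had no block, so they left out that brain and gonad came from the same fish. In males alone edgeR called 0 gene models (0%), with 2 members lower in gonad at an unadjusted p under 0.05 and 1 higher, against 1.77% and 2.65% of all gene models. In females alone it called 0 (0%), with 6 of 198 members tested lower in gonad and 0 higher, against 1.46% and 1.76%. With the block, 2 members were lower and 2 higher in males by the same p, against 295 and 430 of 22015 gene models. In females 4 of 198 were lower and 0 higher, against 273 and 383 of 22006.

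The member of rank 1 had the lowest gonad minus brain value of the 200, -0.74. Gonad lay below brain in all 6 fish, by -0.25, -0.06 and -0.62 in males 1, 2 and 3 and by -0.89, -1.24 and -1.41 in females 1, 2 and 3, with every female below every male. That order of the sexes sets the gonad sex difference against the brain one. The choice used both, so nothing is read from it. The edgeR fit over the 6 fish gave a log2 fold change of -0.64 (adjusted p = 0.783). At the other end the member of rank 32 had a mean of 0.26, with 0.17, 0.93 and 0.10 in males 1, 2 and 3 and 0.19, -0.03 and 0.21 in females 1, 2 and 3. In male 2 it had 74 counts in testis and 32 in brain, and in the other 5 fish gonad and brain differed by at most 0.21.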

How the data were processed

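The authors deposited whole-number read counts per gene model for 24 libraries, with no normalization, per the file headers. Reads were mapped to the genome of Scleropages formosus per the series design text, and Bowtie is named without a version per the submitters' processing notes. The build, annotation, counting tool, strand use, multi-mapping and filters are not given in the sources used, so counts of similar or overlapping gene models are uncertain.

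Counts of both libraries per tissue and fish were added (12 samples, n = 3 fish per group). CPM used column totals. Tests were edgeR 4.0.16 quasi-likelihood F tests in R 4.3.3 with TMM and the default filter (minimum count 10, total 15), adjusted over all gene models. They were also run on simulated counts in which some gene models were changed 2-fold, a larger change than most members showed. That run does not bear on whether differences of the members' size would be called. Alternatives used DESeq2 1.42.0, limma-voom 3.58.1 and a lowess level correction (span 0.3). Brain and gonad of a number come from 1 fish per the labels. Deviations from group means of the 2 tissues correlated at r = -0.06, 0.05 and -0.15 in males and -0.03, 0.32 and 0.04 in females. The 2 members of largest smaller difference are described singly, by rule, and others by rank; identifiers of gene models are not reported here. The members and all lists were chosen with earlier results of these data known. The lists of marker and pathway genes could not be matched to identifiers and were not run.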

Additional observations from a re-analysis of the deposited data

Results flagged for a closer look

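The gonad minus brain difference of the member of rank 32 was 0.93 on the L scale in male 2, far from the other 5 fish, of which the next highest was 0.21. That gap was 0.746 of the whole range over the 6 fish, above the 95% critical value for 6 values. The member was looked at because its mean was the highest of the 200, a mean that this value raises, so the rate of about 1 in 20 sets that chance gives does not apply to it. A single fish stood apart by the same limit, at either end, in 11 of the 200 members (5.5%) and in 8.63% of all gene models.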

How the results depend on the processing

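The rule, met by 278 gene models and 200 members, was met by 2538 with total counts, 639 with upper-quartile scaling, 185 in run 2 alone, 160 with the level correction, and 477, 105 and 10 with a minimum difference of 0, 0.3 and 0.5. Of the members, 62 met it in run 1 (258 gene models), 55 in run 2, 91 with the level correction and 105 and 10 at 0.3 and 0.5. Without 1 fish it was met by 280 to 918 gene models and 165 to 197 members (a setting chosen after seeing the data). With total counts the medians were 0.54 in gonad, 0.63 in brain and -0.18 for gonad minus brain. Leaving out 1 fish gave 0.30 to 0.39 in gonad, 0.30 to 0.39 in brain and -0.09 to -0.05 for gonad minus brain.

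Calls over all gene models, 0 in edgeR, were 28 in gonad and 1358 in brain with DESeq2 (12 of the 93 members with an adjusted p in brain, 0 of 23 in gonad) and 4 in brain with limma-voom. Most were higher in females: all 28 in gonad, 1263 of the 1358 in brain and all 4 with limma-voom. Without 1 fish edgeR called 0 to 2 in gonad and 0 to 575 in brain, with 0 to 5 members. The 2 and 555 of the 575, each without female 1, were higher in females. Between tissues DESeq2 called 26 over 6 fish, 32 in males and 11 in females, edgeR 1 with total counts and 1 with upper-quartile scaling over 6 fish, and 0 to 1 in males without 1 fish. No member was called between tissues in the edgeR and limma-voom settings, nor by DESeq2, which gave an adjusted p to only 17 of 200 members over 6 fish and 95 of 200 in males, and to 198 of 198 tested in females. The replicate block left 0 calls between the sexes and in each sex's tissue comparison, as did its removal over 6 fish. Males and females share only a number (r = 0.11, 0.05 and 0.27 in gonad, 0.04, -0.14 and -0.15 in brain), and 4 of 6 gonad and 2 of 6 brain samples correlated best with their own. With it 87 members in gonad and 120 in brain were higher in males at an unadjusted p under 0.05, against 2.03% and 4.68% of all gene models. Why these counts moved was not tested. Members with few counts are limited by depth.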
